A study of Mus musculus with 2 samples.

Results

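The genes described here encode the proteasome and immunoproteasome, chosen as all symbols of the deposited gene list that begin with *Psma*, *Psmb*, *Psmc*, *Psmd* or *Psme* followed by a number, without names that mark a pseudogene. The rule gave 45 of 54838 genes, of which 43 encode subunits, activators or assembly chaperones of the proteasome. The other 2 are *Psmc3ip*, a recombination protein that carries the letters only because it binds an ATPase subunit, and *Psme2b*, a copy of *Psme2* in the genome. The genes were measured by single-cell RNA sequencing in macrophages of the sciatic nerve from Flt3-Cre LSL-YFP fl/fl mice, in which Cre under the control of *Flt3* switches on YFP for good in cells that have passed through a *Flt3*-expressing stage. CD64+ CD45int cells of 19 male mice aged 10 to 12 weeks were pooled and sorted into YFP− macrophages, which the study reads as embryonic-derived, and YFP+ macrophages, which it reads as HSC-derived. Both groups carry the same Cre and reporter alleles, and the mark records a past stage, not present *Flt3* expression. Each group is 1 library of pooled mice, so the libraries can be compared with each other, but no test of origin and no p-value can be given.

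The proteasome is a barrel of stacked rings that cuts proteins tagged with ubiquitin into short peptides. Its outer alpha rings guard the entrance, and 3 of the beta subunits in each inner ring carry the cutting sites. Interferons, above all interferon-gamma, make many cells build *Psmb8*, *Psmb9* and *Psmb10* into new barrels in place of *Psmb5*, *Psmb6* and *Psmb7*. The resulting immunoproteasome, which cells of the immune system often hold without stimulation, yields peptides that fit MHC class I well. A regulatory cap with a ring of ATPases (*Psmc*) and a lid and base of non-ATPases (*Psmd*) unfolds and feeds in tagged proteins, and the PA28 and PA200 activators (*Psme*) open the barrel without ubiquitin.

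Barcodes with at least 500 UMIs and 200 genes were taken as cells. This gave 1045 YFP− and 4053 YFP+ cells, with medians of 2233 and 1484 UMIs, and 2418044 and 6747554 UMIs in all. Of the cell barcodes, 7 occurred in both libraries. Macrophage markers, such as *C1qa* and *Csf1r*, made up 32430 and 33001 UMIs in every 1000000 (CPM) in YFP− and YFP+ cells. Schwann cell markers came to 696 and 637 CPM, fibroblast markers to 23.6 and 94.6 CPM and mural cell markers to 11.2 and 141 CPM, and no UMI of the 4 neutrophil markers was seen. Cells with 3 or more UMIs of markers of other types made up 10.8% of YFP− and 6.96% of YFP+ cells.

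Levels are given as CPM, the UMIs of a gene summed over the cells of a library and scaled to a library of 1000000 UMIs. A UMI stands for 1 captured RNA molecule read at its end, so levels were not divided by transcript length, although capture can differ between genes. Values in parentheses are exact 95% intervals, which cover counting error only and not differences between cells, mice, sorts or libraries. Intervals of levels, ratios and shares of UMIs treat each UMI as a separate draw, so they are too narrow where UMIs gather in few cells. Log2 ratios were taken after adding 1 CPM.

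Promoter sequences are shown for 5 genes of the comparisons that hold a match to 1 of 4 motifs, the induced *Psmb8* and *Psmb9*, the activator *Psme1* and the standard *Psmb5* and *Psmb6*. Each runs from 250 bases before to 50 bases after the RefSeq start of transcription in the GRCm38.p6 build, 5′ to 3′ on the strand of the gene. Capitals mark matches, on either strand, to the gamma-activated site TTCNNNGAA bound by STAT dimers, the core of the interferon-stimulated element (GAAA, any 2 bases, GAAA) bound by IRF and STAT complexes, the antioxidant element TGACNNNGC bound by NRF factors, or the CCAAT box.
Psmb8: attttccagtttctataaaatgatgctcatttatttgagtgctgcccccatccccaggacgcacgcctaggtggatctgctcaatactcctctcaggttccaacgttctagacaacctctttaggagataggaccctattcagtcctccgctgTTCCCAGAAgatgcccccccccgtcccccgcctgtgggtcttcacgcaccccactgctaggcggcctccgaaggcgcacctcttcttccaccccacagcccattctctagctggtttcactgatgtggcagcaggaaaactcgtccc
Psmb9: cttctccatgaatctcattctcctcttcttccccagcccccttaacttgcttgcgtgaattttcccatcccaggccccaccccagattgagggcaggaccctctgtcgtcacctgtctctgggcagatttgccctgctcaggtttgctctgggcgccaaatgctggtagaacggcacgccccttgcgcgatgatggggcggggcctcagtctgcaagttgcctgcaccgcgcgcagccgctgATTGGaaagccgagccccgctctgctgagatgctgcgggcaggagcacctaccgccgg
Psme1: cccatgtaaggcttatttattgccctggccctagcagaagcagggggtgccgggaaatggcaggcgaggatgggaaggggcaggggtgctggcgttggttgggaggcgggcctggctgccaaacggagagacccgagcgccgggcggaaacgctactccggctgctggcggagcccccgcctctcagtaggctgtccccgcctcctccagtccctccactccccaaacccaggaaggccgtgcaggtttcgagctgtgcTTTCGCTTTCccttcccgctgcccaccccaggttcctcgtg
Psmb5: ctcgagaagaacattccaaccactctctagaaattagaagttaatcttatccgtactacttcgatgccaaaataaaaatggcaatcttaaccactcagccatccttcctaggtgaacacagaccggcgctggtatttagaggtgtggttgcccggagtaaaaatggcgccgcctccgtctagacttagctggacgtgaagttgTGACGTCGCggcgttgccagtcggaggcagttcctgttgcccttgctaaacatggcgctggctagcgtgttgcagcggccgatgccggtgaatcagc
Psmb6: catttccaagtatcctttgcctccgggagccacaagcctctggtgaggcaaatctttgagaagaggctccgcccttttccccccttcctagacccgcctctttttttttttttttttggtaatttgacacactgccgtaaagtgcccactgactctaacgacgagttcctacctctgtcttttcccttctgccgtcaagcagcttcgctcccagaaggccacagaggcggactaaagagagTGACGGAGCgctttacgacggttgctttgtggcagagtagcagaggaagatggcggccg
The windows lie at chr17:34197945-34198244 (plus strand), chr17:34187281-34187580 (minus), chr14:55578244-55578543 (plus), chr14:54617946-54618245 (minus) and chr11:70525107-70525406 (plus). The capitals are a match to the gamma-activated site in *Psmb8*, to the CCAAT box in *Psmb9*, to the interferon-stimulated core in *Psme1* and to the antioxidant element in *Psmb5* and *Psmb6*. The match in *Psme1* lies after the RefSeq start. The windows of *Psmb8*, *Psmb9* and *Psme1* lie wholly inside the gene spans of GENCODE M21, the source of gene positions here, which begin further upstream. The window of *Psmb9* shares 275 bases with that of *Tap1*, the peptide transporter gene on the opposite strand, so both start from 1 stretch of DNA and hold the same CCAAT match. *Psmb9*, *Tap1*, *Psmb8* and *Tap2* follow each other within chr17:34181987-34216321, in the MHC. RefSeq windows were found for 38 of the 45 genes, not including *Psmb7*. The windows of *Psmb10* and *Psme2*, not printed, held none of the 4 motifs. Of these 38, 2 held TTCNNNGAA (*Psmb8* and *Psmd2*), 4 held the interferon-stimulated core, 6 held TGACNNNGC and 15 held CCAAT. The shares among 27025 genes with a window were 9.55%, 3.99%, 14.0% and 41.1%, and a match describes letters in a window, not a bound site.

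Sciatic nerve macrophages gave more UMIs of the induced than of the standard catalytic subunits, by a small and uncertain margin. The 3 induced subunits summed to 340 CPM (318–364) in the cells without YFP and 344 CPM (330–358) in those with it, and the 3 standard subunits to 274 CPM (253–295) and 299 CPM (286–312). The induced subunits therefore gave 55.4% (52.9–58.0) of the UMIs of all 6 catalytic subunits in YFP− and 53.5% (52.0–55.0) in YFP+ macrophages. Intervals of the shares in the 2 libraries overlapped.

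The balance differed between the pairs that occupy the same place in the ring. *Psmb8*, which encodes LMP7, the induced form of the chymotrypsin-like site, was the highest of the 6, with a level of 183 CPM (167–201) among YFP− cells and 200 CPM (189–211) among YFP+ cells. Its counterpart *Psmb5* was at 69.1 CPM (59.0–80.4) and 77.1 CPM (70.6–84.0), and *Psmb8* gave 72.6% (68.9–76.1) and 72.2% (70.1–74.2) of the UMIs of the pair. Of the end of *Psmb5* transcripts 50.3% also occurs in *Gm3375*, against 0 for *Psmb8*, so UMIs of *Psmb5* may have been lost and the share is uncertain. *Psmb8* lies at chr17:34197721-34201454 and *Psmb5* at chr14:54614119-54618022.

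The order was turned for *Psmb9*, which encodes LMP2. *Psmb9* (chr17:34181987-34187764) was at 68.2 CPM (58.2–79.5) and 62.5 CPM (56.7–68.8), while *Psmb6* (chr11:70525367-70527858), the standard caspase-like subunit, was at 136 CPM (121–151) and 157 CPM (147–166). *Psmb9* thus gave 33.5% (29.3–37.8) of its pair in YFP− and 28.6% (26.3–30.9) in YFP+ cells. *Psmb10*, which encodes MECL1 (chr8:105935735-105938444), was at 88.9 CPM (77.4–102) and 81.7 CPM (75.0–88.8), against 69.1 CPM (59.0–80.4) and 65.1 CPM (59.1–71.4) for *Psmb7* (chr2:38588036-38644087), the standard trypsin-like subunit. Its share of the pair was 56.3% (51.1–61.3) and 55.7% (52.5–58.8). Within each library the 3 shares lay apart from each other, since none of their intervals overlapped, whereas for each pair the intervals of the 2 libraries overlapped.

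**Figure D1:**
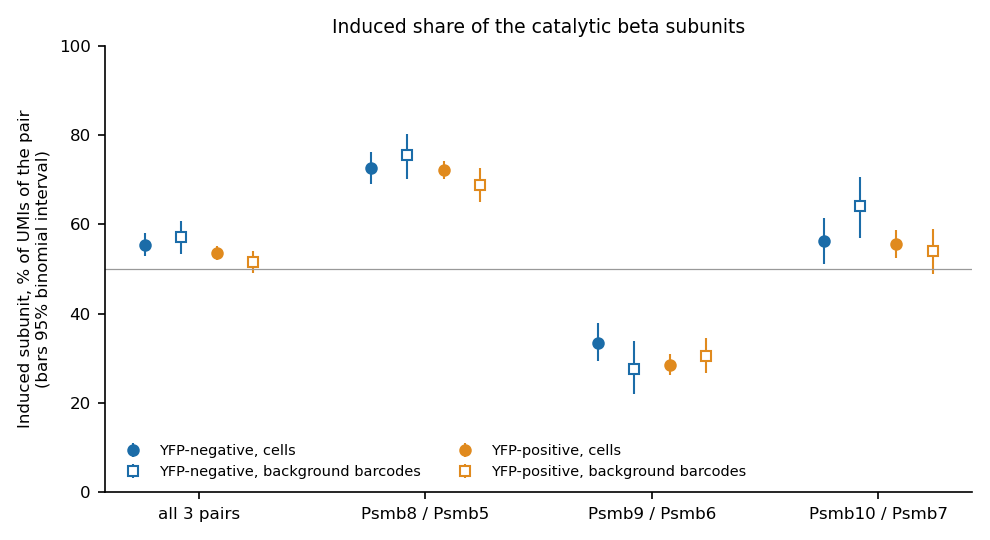
Percent of the UMIs of a pair of catalytic subunits (x axis) that came from the induced member (y axis), in cells (filled circles) and in background barcodes with 10 to 100 UMIs (open squares) of the YFP-negative (blue) and YFP-positive (orange) library, with 95% binomial intervals. *Psmb8* took 72.6% and 72.2% of its pair in cells and *Psmb9* only 33.5% and 28.6%, and background barcodes lay near the cells of their library.

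Barcodes with 10 to 100 UMIs were taken as a reading of free RNA. In them the induced subunits made up 57.0% (53.3–60.7) of the catalytic UMIs in the YFP− and 51.5% (49.0–54.1) in the YFP+ background. The levels themselves were lower in cells than in this background for 34 of 41 members in the YFP− and 35 of 41 in the YFP+ library, with median log2 ratios of cells over background of -0.31 and -0.32 against -0.07 and -0.05 over all genes. The shares of all genes below background are not given, so these counts are not read as particular to the proteasome. For *Psmb8* the log2 ratios of cells over background were -0.41 and -0.02, and for *Psmb9* they were -0.04 and -0.36. *Psme2b* went the other way, with 52.5 CPM in cells and 17.6 CPM in the background of the YFP− library and 38.4 and 14.3 CPM in the YFP+ library.

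Among the other members the levels spanned a wide range. The alpha ring was the highest group in both libraries, with 883 and 952 CPM (846–921 and 929–976) over 7 genes, from *Psma6* at 65.3 and 83.0 CPM to *Psma7* at 269 and 284 CPM, the highest of all 45 genes. The 4 beta subunits without a cutting site, *Psmb1* to *Psmb4*, came to 509.5 CPM (481–539) and 541 CPM (524–559), led by *Psmb1* at 168 and 194 CPM. *Psmb8* was thus the second highest member in both libraries by rank, above every structural beta subunit, although its interval met that of *Psmb1*.

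Subunits of the cap were lower per gene. The 6 ATPases, which thread substrates into the barrel, summed to 337 CPM (315–361) and 386 CPM (372–401), with *Psmc3* highest at 101 and 121 CPM. The lowest was *Psmc2* in YFP− cells, at 36.4 CPM, and *Psmc4* in YFP+ cells, at 47.0 CPM. The 11 non-ATPases summed to 488 CPM (461–517) and 554 CPM (537–572), led by *Psmd4*, a ubiquitin receptor, at 85.6 and 87.7 CPM. *Psmd14*, the deubiquitinase of the lid, was the lowest of them in YFP− cells at 25.2 CPM (19.3–32.4), and *Psmd6* in YFP+ cells at 25.6 CPM (22.0–29.8). The assembly chaperones *Psmd5*, *Psmd9* and *Psmd10* summed to 55.0 and 60.3 CPM.

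Of the activators, PA28 alpha and beta, the interferon-inducible pair that binds immunoproteasomes in the cytosol, far exceeded the nuclear PA28 gamma. *Psme1* was at 161 and 176 CPM (145–178 and 166–187), and *Psme2* at 107 CPM (94.1–121) and 111 CPM (103–119). *Psme3*, which encodes PA28 gamma, was at 21.9 CPM (16.4–28.7) and 19.3 CPM (16.1–22.9), so that the alpha and beta genes held 92.4% (90.2–94.3) and 93.7% (92.6–94.7) of PA28 UMIs. *Psme4*, which encodes PA200, was at 20.3 CPM, from 49 UMIs, and 24.0 CPM, from 162 UMIs. Of the last 500 bases of annotated *Psme2* transcripts, 62.3% of the stretches of 60 bases also occur in *Psme2b*, so reads of these 2 genes may have been split or lost and both values are uncertain.

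The subunits known from specialised tissues were near the detection floor of 3 UMIs, except *Psma8* in YFP+ cells. The floor equals 1.24 and 0.445 CPM in the YFP− and YFP+ libraries. *Psmb11*, the catalytic subunit of thymic cortical epithelium, had 2 UMIs in YFP− and 3 UMIs in YFP+ cells. *Psma8*, the alpha subunit of male germ cells, had 3 and 18 UMIs. *Psmc3ip* had 11 and 33 UMIs.

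**Figure D2:**
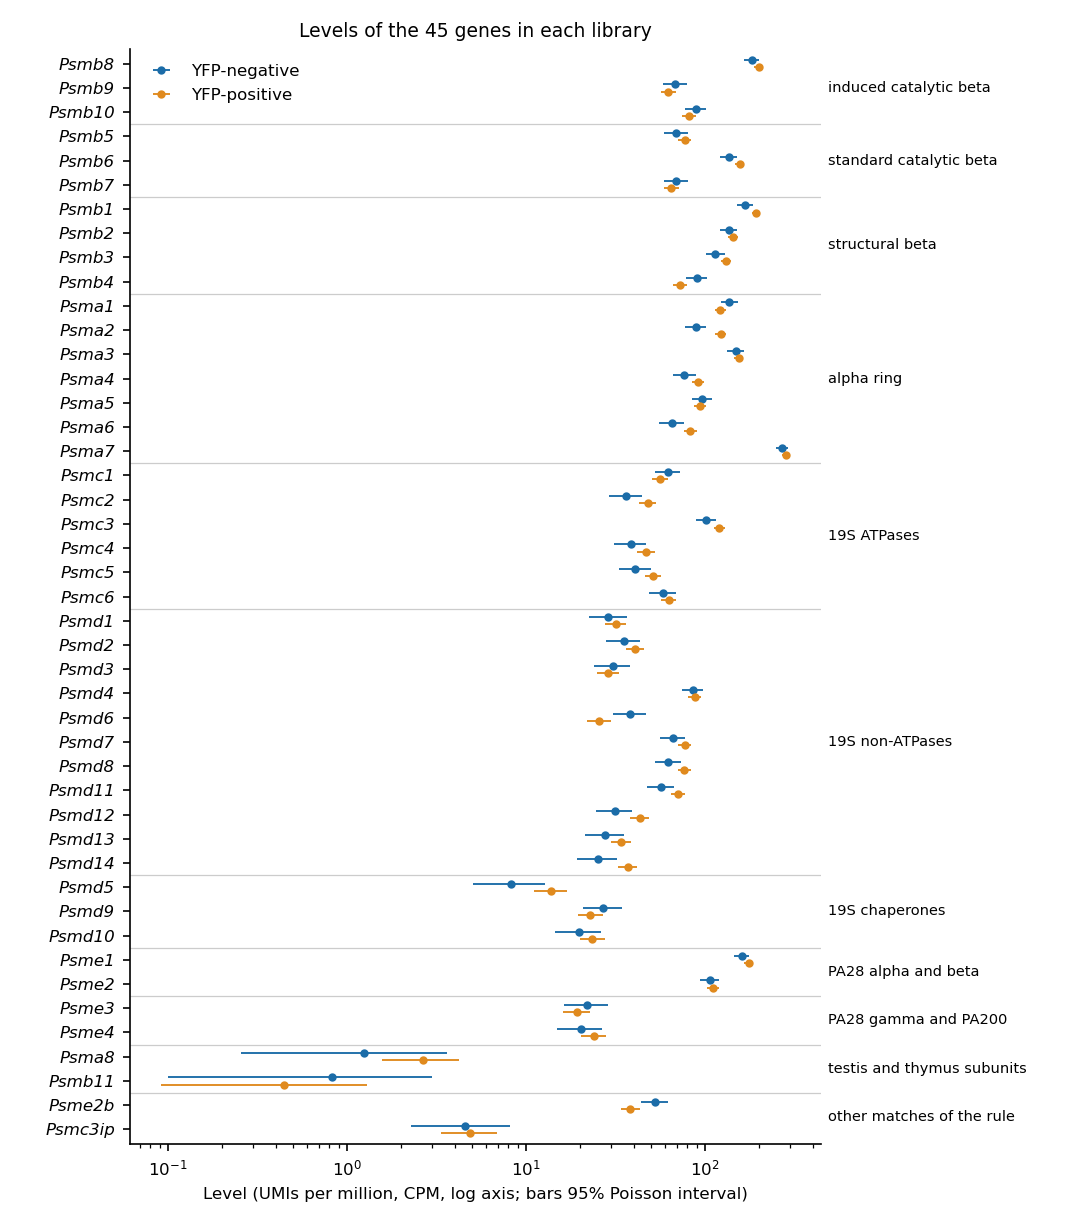
Level of each of the 45 genes (y axis, grouped by role) in CPM on a log axis (x axis), for YFP-negative (blue) and YFP-positive (orange) cells, with 95% Poisson intervals. *Psma7* is highest at 269 and 284 CPM, *Psmb8* stands above *Psmb5*, *Psmb9* below *Psmb6*, and *Psmb11* lies near the detection floor.

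Genes that work with the proteasome were measured in the same cells. *Sem1*, the smallest subunit of the lid, was at 560 and 588 CPM, *Pomp*, the chaperone that builds new barrels, at 275 and 264 CPM, and *Adrm1*, a ubiquitin receptor of the cap, at 36.4 and 40.5 CPM. Of the ubiquitin genes, *Rps27a* was at 2509 and 2665 CPM and *Ubb* at 1367 and 1634 CPM. Among MHC class I genes, *B2m*, the light chain, was at 2029 and 2010 CPM, *Tapbp* at 139 and 115 CPM, *Tap2* at 34.3 and 39.9 CPM and *Tap1* at 28.1 and 20.9 CPM. *Nfe2l1*, which encodes the factor that raises subunit genes when proteasomes fail, was at 40.9 and 42.1 CPM.

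The next comparison asks whether the subunits differed between macrophages that had and had not passed a *Flt3* stage. No member was past 1.5-fold in either direction among the 41 with a mean of at least 20 CPM, against 1.54% of 5531 genes higher and 5.77% lower in YFP+ cells. Among the 5152 protein-coding genes, the type of all members, 1.49% were higher and 1.79% lower. A count of 0 among 41 is near these shares and is not read as a result about the members. After every cell was thinned to 500 UMIs, 6 members were past 1.5-fold higher and 2 lower. Thinning leaves fewer UMIs of every gene, and the share of all genes past 1.5-fold in thinned cells is not given. These 2 counts are therefore not read as a result about the members. Of the 41, 29 were higher and 12 lower in YFP+ cells, with a median log2 ratio of 0.13 against -0.00 over all genes. The counting interval lay above 0 for 13 members, below 0 for 3 and held 0 for 25. The shares of all genes above 0, or with an interval off 0, are not given, so these counts are not read as particular to the proteasome. Summed by role, the induced subunits had a log2 ratio of 0.02 (-0.10–0.13), the standard subunits of 0.12 (-0.00–0.25) and the other 37 subunits of 0.13 (0.09–0.17). Here and below, the other 37 are the rest of the 43 proteasome genes, with PA28 alpha and beta and the assembly chaperones among them.

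The highest ratios were those of *Psmd14* at 0.54 (25.2 against 37.1 CPM), *Psma2* at 0.46 (89.3 against 123 CPM) and *Psmd12*, a lid subunit, at 0.45 (31.4 against 43.3 CPM). The lowest were those of *Psmd6*, another lid subunit, at -0.55 (38.0 against 25.6 CPM), *Psme2b* at -0.44 and *Psmb4* at -0.31 (90.6 against 72.9 CPM). *Psmd5*, left out of the count by its low level, was at 8.27 and 13.8 CPM, a log2 ratio of 0.67 (0.03–1.35). Among the catalytic subunits, *Psmb6* had a ratio of 0.20 (0.03–0.39), and the intervals of the other 5 held 0. The ratio of *Psmb6* turned to -0.02 in cells thinned to 500 UMIs each and in cells of 500 to 1000 UMIs.

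**Figure D3:**
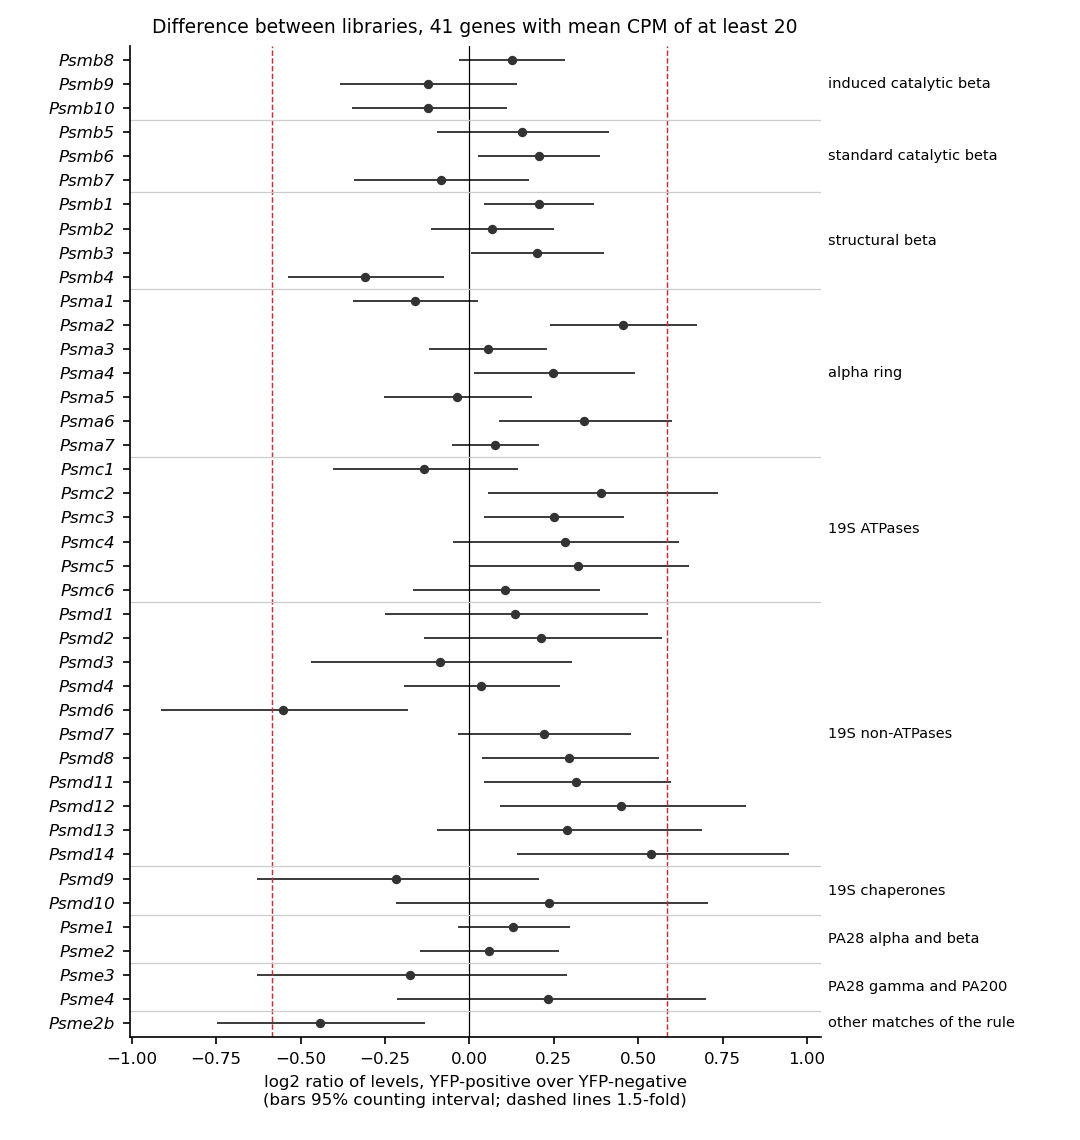
Log2 ratio of the level in YFP-positive over that in YFP-negative cells (x axis) for the 41 genes with a mean of at least 20 CPM (y axis, grouped by role), with 95% counting intervals, and dashed lines at 1.5-fold. All 41 points, from all UMIs of the cells, lie between the dashed lines, from *Psmd6* at -0.55 to *Psmd14* at 0.54, and 29 lie above 0.

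Cells of the YFP+ library had fewer UMIs, and subunit levels moved with the UMI total of a cell in both libraries. The other 37 subunits were at 2119 CPM in YFP− cells of 500 to 1000 UMIs and 3076 CPM in those of 4000 or more, and at 2458 and 3379 CPM in the same bins of YFP+ cells. Within these bins their log2 ratio between libraries stayed above 0, from 0.10 to 0.23. The libraries also differed in genes outside the proteasome. Of 243 annotated pseudogenes with a mean of at least 20 CPM, 88.9% were past 1.5-fold lower in the YFP+ library, against 1.79% of 5152 protein-coding genes, and pseudogenes took 5.68% of UMIs in YFP− and 2.74% in YFP+ cells. In 11 of the 41 members at least 10% of the end of the transcript also occurs in transcripts of other genes, and their median log2 ratio was 0.13, against 0.17 for the other 30. For *Psmb7*, *Psmb9* and *Psmb10*, as for *Psmb8*, this shared part is 0. The part of shared sequence in the ratios of single members was not tested.

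Genes of the pathway lists with a mean of at least 20 CPM were compared in the same way. None of the 5 genes of proteasome assembly, the 8 cap subunits, receptors and deubiquitinases with other names, the 9 regulators and the 10 genes of MHC class I presentation was past 1.5-fold in either direction. Over all genes 1.54% were higher and 5.77% lower, so these counts are near the shares and are not read as a result about the lists. The ubiquitin list is not part of these counts. *Rps27a*, a fusion gene of ubiquitin and a ribosomal protein, had a log2 ratio of 0.09.

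In single cells, UMIs of an induced subunit were about as frequent beside a standard subunit as without one. After every cell was thinned to 500 UMIs, 15.5% (13.4–17.8) of YFP− and 14.5% (13.4–15.6) of YFP+ cells held a UMI of an induced subunit, and 12.3% (10.4–14.5) and 12.8% (11.8–13.9) held one of a standard subunit. Both kinds were seen in 1.82% and 1.85% of cells, and neither in 74.0% and 74.5%. An induced UMI was found in 14.7% (9.11–22.0) of YFP− cells with a standard UMI and in 15.6% (13.3–18.1) of those without, and in YFP+ cells in 14.4% and 14.5%. Pearson's r between the 2 sums over thinned cells was -0.01 over 1045 YFP− and 0.00 over 4053 YFP+ cells, and over the 15 pairs of catalytic subunits it stayed between -0.05 and 0.07, too weak to be read as a relation.

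These shares carry little information on single cells. If each of the 500 UMIs had been drawn from the background barcodes, 20.3% and 17.6% of cells would have held an induced UMI and 15.7% and 16.7% a standard UMI, more than was seen. The share of cells with a UMI is therefore at or below background and is not read as the share of cells expressing a subunit. Without thinning, 46.4% of YFP− and 39.3% of YFP+ cells held an induced UMI.

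To find which macrophages held more of the induced subunits, cells were ranked by their thinned UMIs of 6 gene lists that contain no proteasome gene. Cells at or above a cut that at most 10% of all cells reached, which was 4.31% to 11.1% of a library, were set against the other cells of the same library. These are ranges of a score, not cell types, and the 2 libraries give separate readings of each.

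The induced subunits were higher in cells in the high range of the interferon list, in both libraries. The range held the 68 YFP− and 297 YFP+ cells with 4 or more UMIs of the list, and 85 and 301 further cells were 1 UMI short of it. The median UMI total was 1881 in the range and 2260 outside it in YFP− cells and 1573 and 1480 in YFP+ cells. The induced subunits were at 478 CPM in the range and 331 CPM in the other YFP− cells, a log2 ratio of 0.53 (0.16–0.88), and at 463 and 334 CPM in YFP+ cells, a log2 ratio of 0.47 (0.27–0.66). Each of the 3 induced genes had a log2 ratio above 0 in each library. PA28 alpha and beta had log2 ratios of 0.42 (-0.02–0.83) and 0.29 (0.06–0.51), and the other 37 subunits of 0.15 (0.00–0.29) and 0.02 (-0.06–0.10). Within these 37 the ATPases of the cap had log2 ratios of 0.43 (0.04–0.79) and 0.19 (-0.02–0.38). Those of the structural beta subunits were 0.27 (-0.06–0.58) and -0.03 (-0.21–0.15), and those of the alpha ring -0.09 and -0.09. A higher level was thus not confined to the interferon-inducible subunits. Besides the ATPases in YFP− cells, the standard subunits in YFP+ cells had an interval above 0, at 0.26 (0.03–0.48).

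*Psmb9* had the highest log2 ratio of the 3 in both libraries. It was at 115 CPM in the range and 65.2 CPM in the other YFP− cells, from 17 UMIs in the range, and at 96.04 and 59.8 CPM in YFP+ cells, from 49 UMIs. The log2 ratios were 0.80 (-0.01–1.52) and 0.67 (0.22–1.10). *Psmb8* had log2 ratios of 0.48 (-0.05–0.96) and 0.39 (0.12–0.65) and *Psmb10* of 0.39 (-0.41–1.10) and 0.46 (0.04–0.86). In YFP− cells 7 of 41 members were past 1.5-fold higher and 6 lower in this range, against 12.3% and 19.3% of all genes, and in YFP+ cells 2 and 3, against 4.48% and 5.77%. *Psmb9* was the only member past 1.5-fold higher in both, and *Psme3* the only one past it lower in both, from 2 and 5 UMIs in the range. In each of the 6 ranges 1 member was past it higher in both libraries. The shares of all genes past 1.5-fold in both libraries are not given. Members named as past it in both, here and below, are therefore not read as particular to a range.

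The standard subunits did not move alike in the 2 libraries. Their log2 ratio in the interferon range was -0.32 (-0.87–0.19) in YFP− and 0.26 (0.03–0.48) in YFP+ cells, and that of *Psmb6* was -0.66 and 0.37. The induced share of catalytic UMIs was 68.3% (58.4–77.1) in the range and 54.5% (51.8–57.1) outside it in YFP− cells. In YFP+ cells it was 56.7% (51.8–61.5) and 53.2% (51.6–54.8), with intervals that overlapped.

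Of the 10 genes of MHC class I presentation with a mean of at least 20 CPM, 4 were past 1.5-fold higher in the interferon range in YFP− cells (*B2m*, *Canx*, *Tap1* and *Tapbp*) and 2 in YFP+ cells (*H2-K1* and *Tapbp*), and none was past it lower. Over all genes 12.3% and 4.48% were past it higher in the YFP− and YFP+ library, and 19.3% and 5.77% lower. The median log2 ratio of the 10 class I genes was 0.44 and 0.12, against -0.03 and 0.00 over all genes. *B2m* was at 3045 CPM in the range and 1962 CPM outside it in YFP− cells and at 2687 and 1955 CPM in YFP+ cells. *Tapbp*, which loads peptides on class I molecules, had log2 ratios of 0.87 (0.33–1.37) and 0.63 (0.29–0.95). *Tap1*, which shares its promoter window with *Psmb9*, was at 47.2 against 26.9 CPM in YFP− cells, from 7 UMIs in the range, but at 21.6 against 20.8 CPM in YFP+ cells. Without *Ifitm3*, *Ifi27l2a* and *Bst2* in the list, a change made after the data were seen, the log2 ratios of the induced subunits were 0.60 and 0.32.

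**Figure D4:**
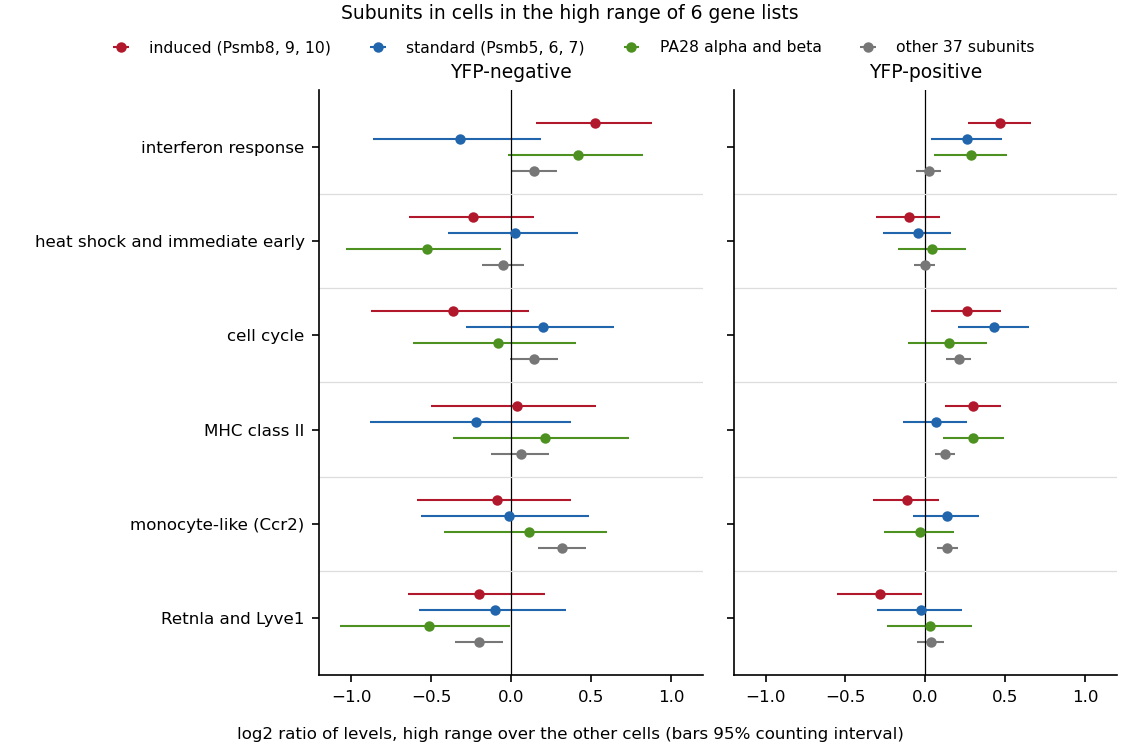
Log2 ratio of subunit levels (x axis) in cells in the high range of 6 gene lists (y axis) over the other cells, in the YFP-negative (left) and YFP-positive (right) library, for the induced catalytic (red), standard catalytic (blue), PA28 alpha and beta (green) and other 37 subunits (grey), with 95% counting intervals. The induced subunits lie above 0 in the interferon range of both libraries, at 0.53 and 0.47. The standard subunits lie at -0.32 and 0.26, and the other 37 subunits, which include PA28 alpha and beta, at 0.15 and 0.02.

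In cells high in MHC class II, which presents peptides from outside the cell, the interval of the induced subunits lay above 0 in the YFP+ library and held 0 in the YFP− library. In that range the induced subunits had a log2 ratio of 0.04 (-0.50–0.53) in 53 YFP− cells and 0.30 (0.12–0.47) in 451 YFP+ cells, and PA28 alpha and beta of 0.21 (-0.36–0.74) and 0.30 (0.11–0.49). The other 37 subunits had log2 ratios of 0.06 (-0.12–0.24) and 0.12 (0.06–0.19). The median UMI total was 1314 in the range and 2264 outside it in YFP− cells and 1608 and 1473 in YFP+ cells. The difference between the libraries and the part of depth in it were not tested. In YFP+ cells *Psmb10* was at 121 CPM in the range and 76.7 CPM outside it, while *Psmb9* was at 57.1 and 63.2 CPM. The class I heavy chain *H2-D1*, whose reads may be split with its close relatives, was past 1.5-fold higher in this range in both libraries, at 2138 against 1024 CPM and 1866 against 1096 CPM, and so was *Tap2*, at 103 against 31.5 CPM and 62.4 against 37.03 CPM. Median log2 ratios of the 41 members with at least 20 CPM were 0.09 and 0.12 in this range, against -0.19 and -0.14 over all genes. Among members, 3 were past 1.5-fold higher and 6 lower in YFP− cells, against 12.9% and 31.3% of all genes, and 2 and 0 in YFP+ cells, against 1.86% and 10.4%. *Psmd6* was the only member past 1.5-fold in both, at 82.2 against 36.2 CPM from 8 UMIs and at 39.8 against 23.9 CPM from 30 UMIs.

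Cells in the high range of cell cycle genes held more proteasome RNA in the YFP+ library. The range began at only 3 UMIs of the list, and 471 YFP+ and 117 YFP− cells, more than it held, were 1 UMI short of it. All members together were at 4083 CPM in the 225 YFP+ cells of the range and 3472 CPM outside it, a log2 ratio of 0.23 (0.17–0.30). In the 47 YFP− cells of the range the ratio was 0.09 (-0.05–0.22). Cells of the range also had more UMIs, with medians of 1779 against 1473 in the YFP+ and 2843 against 2224 in the YFP− library, and the part of depth in these ratios was not tested. Of 41 members, 33 were above 0 in YFP+ cells and 19 in YFP− cells. Their median log2 ratios were 0.25 and -0.09, against 0.02 and -0.02 over all genes. The shares of all genes above 0 are not given, so these counts are not read as particular to the proteasome. *Psmb6* was at 210 against 131 CPM in YFP− cells and 203 against 153 CPM in YFP+ cells. The induced subunits summed to 268 against 345 CPM in YFP− cells, a log2 ratio of -0.36 (-0.88–0.11), and to 406 against 340 CPM in YFP+ cells, a log2 ratio of 0.26 (0.04–0.47). In YFP+ cells *Psmb8* had a log2 ratio of 0.41 (0.12–0.68) and *Psmb9* of 0.62 (0.13–1.07), while in YFP− cells theirs were -0.14 (-0.81–0.46) and -0.67 (-2.08–0.47). *Psmb10* was past 1.5-fold lower in both, at 58.0 against 90.8 CPM, from 8 UMIs, and at 54.0 against 83.7 CPM, from 25 UMIs. *Psme4* was also past 1.5-fold lower in both, from 0 and 7 UMIs in the range, and *Psmd1*, a large subunit of the base, past it higher, at 58.0 against 27.2 CPM and 47.6 against 30.7 CPM. In YFP− cells 6 members were past 1.5-fold higher and 9 lower, against 15.3% and 20.8% of all genes, and in YFP+ cells 5 and 2, against 7.76% and 7.41%.

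In cells high in heat shock and immediate early genes, the polyubiquitin gene *Ubb* was higher but the subunits were not. *Ubb* was at 2952 CPM in the range and 1220 CPM outside it in YFP− cells and at 3242 and 1446 CPM in YFP+ cells. The median UMI total was 2791 in the range and 2176 outside it in YFP− cells and 1741.5 and 1466 in YFP+ cells. The part of depth was not tested. All members together had log2 ratios of -0.07 (-0.19–0.05) and -0.02 (-0.08–0.04). Median log2 ratios of the 41 members with at least 20 CPM were -0.07 and -0.06, against -0.12 and -0.11 over all genes. By role, the non-ATPases of the cap had log2 ratios of 0.03 (-0.28–0.32) and 0.19 (0.04–0.33). Those of PA28 alpha and beta were -0.53 (-1.03–-0.06) and 0.04 (-0.17–0.25). *Psmd12* was the only member past 1.5-fold higher in both libraries, at 48.8 against 29.8 CPM from 10 UMIs and at 73.9 against 39.7 CPM from 52 UMIs. In YFP− cells 4 members were past 1.5-fold higher and 5 lower, against 9.73% and 21% of all genes, and in YFP+ cells 1 and 1, against 4.19% and 9.38%.

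In the range of the *Ccr2* and monocyte genes the other 37 subunits were higher, with log2 ratios of 0.32 (0.17–0.47) and 0.14 (0.07–0.20), while those of the induced subunits were -0.09 (-0.59–0.37) and -0.12 (-0.32–0.09). The median UMI total was 2390 in this range and 2230.5 outside it in YFP− cells and 1572 and 1478 in YFP+ cells. The part of depth was not tested. Members past 1.5-fold numbered 11 higher and 7 lower in YFP− cells, against 15% and 22% of all genes, and 2 and 2 in YFP+ cells, against 3.89% and 6.82%. *Psmd2*, the other large subunit of the base, was the only member past it in both, at 57.6 against 34.0 CPM from 7 UMIs and at 59.5 against 38.8 CPM from 40 UMIs. In the range of *Retnla* and *Lyve1* the induced subunits had log2 ratios of -0.20 (-0.64–0.21) and -0.28 (-0.56–-0.02), and the YFP− value was -1.02 with levels from thinned cells. The other 37 subunits had log2 ratios of -0.20 (-0.35–-0.05) and 0.03 (-0.05–0.12) in this range. Its median UMI total was 1550 against 2317 outside it in YFP− cells and 1474 against 1484 in YFP+ cells. The part of depth in these ratios was not tested. *Psme4* was the only member past 1.5-fold in both libraries there, at 47.8 against 18.2 CPM from 8 UMIs and 41.9 against 22.8 CPM from 18 UMIs. Members past 1.5-fold in this range numbered 4 higher and 9 lower in YFP− cells, against 14.2% and 19.3% of all genes, and 1 and 1 in YFP+ cells, against 5.32% and 9.76%.

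Finally, all genes with a mean of at least 50 CPM were compared between cells with and without a UMI of the induced subunits in the thinned counts. Of 2629 genes, 40 were past 1.5-fold higher in YFP− cells with an induced UMI (1.52%) and 2 in YFP+ cells (0.0761%), and none was higher in both. By the smaller of the 2 ratios, the leading genes were *Kansl1* (0.49 and 0.51), *Ndfip1*, *Milr1*, *Cox20*, *Ormdl2*, *Ccdc115*, *Ccl7*, *Cnot4*, *Evl* and *Pdcd6ip* (0.61 and 0.29). MHC class I genes as a list were at 4886 against 4343 CPM in YFP− and 4826 against 4430 CPM in YFP+ cells, log2 ratios of 0.17 (0.10–0.24) and 0.12 (0.08–0.17). Much of this sum was *B2m*, at 2354 against 1964 CPM and 2187.5 against 1978 CPM, while *Tap1* had log2 ratios of 0.37 and -0.29. The rise was not particular to class I. The interferon list had log2 ratios of 0.13 (0.03–0.22) and 0.13 (0.07–0.19), and the MHC class II list of 0.09 (0.06–0.11) and 0.11 (0.10–0.12). For a standard UMI the ratios of the class I list were 0.13 (0.05–0.21) and 0.04 (-0.005–0.09). For an induced UMI the heat shock and immediate early list had log2 ratios of -0.16 (-0.21–-0.10) and -0.12 (-0.16–-0.09). UMIs of this list gathered in few cells, with medians of 17 and 18 in its high range and 2 and 3 outside it. Its intervals leave out this spread between cells. The *Ccr2* and monocyte list had log2 ratios of -0.07 and -0.11, and the *Retnla* and *Lyve1* list of -0.15 and -0.06. Cells with an induced UMI had a median of 2588 UMIs, against 2169 without one, in the YFP− library. In the YFP+ library these medians were 1644 and 1458, and the part of depth was not tested.

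Genes past 1.5-fold lower in both libraries in cells with an induced UMI were 4, against 3.54% of all genes in YFP− and 0.571% in YFP+ cells taken singly. Among them were *Mt2*, a metallothionein, *Fam168b* (-0.72 and -0.68) and *Sparc*, a matrix protein (-0.68 and -1.16). In cells with a standard UMI, 5 genes were past 1.5-fold higher in both, among them *Cd9*, *Mt2*, *S100a4* and the myelin gene *Mbp*, against 2.78% and 0.38% of genes higher in each library, and *Dock10* and *Ino80d* were past it lower in both, against 3.69% and 0.533%. The 5 cells with most *Mbp* held 44.0% of its UMIs in the YFP− and 13.5% in the YFP+ library. Without cells that held 3 or more UMIs of markers of other types, a setting added for these genes after the data were seen, the log2 ratio of *Mbp* for a standard UMI went from 1.09 and 0.63 to 0.50 and -0.32, and that of *Cd9* from 0.89 and 0.86 to -0.12 and 0.03. The ratios of *S100a4* for a standard UMI went from 1.17 and 0.70 to 0.95 and 0.80. Those of *Mt2* went from 0.81 and 1.23 to 0.36 and -0.46. For an induced UMI the ratios of *Mt2* went from -0.89 and -0.90 to -0.14 and -0.27. *Fam168b* and *Sparc* were not computed without these cells.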

How the data were processed

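Single-cell RNA was captured with the 10x Genomics v2 chemistry from sorted YFP− and YFP+ macrophages of pooled mice, 1 library each. The authors deposited, for each library, a matrix of UMI counts per gene and barcode with no cell calls and no cell type labels. Their processing notes name Cell Ranger 3.0.2, Seurat 2.2.0 and the GRCm38 build, and the annotation release is not given in the sources used here. GENCODE M21 matched 54809 of 54838 gene identifiers and gave positions and transcript ends.

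From these counts, barcodes with at least 500 UMIs and 200 genes were kept as cells. A filter of the study on mapped reads per cell cannot be repeated from UMI counts. No doublet caller was run and doublets were kept, and the 5% of cells with most UMIs were left out as an alternative. CPM came from UMIs summed over cells, with 1 CPM added before log2. For comparisons of single cells each cell was thinned to 500 UMIs. Genes with a mean of at least 20 CPM were compared between libraries and ranges and those with at least 50 CPM between cells with and without a UMI, and a gene was called past 1.5-fold. Intervals are exact Poisson or Clopper-Pearson intervals at 95%. With 1 library per group no test was run. The calculations were tested on simulated data.

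The genes and lists were chosen with earlier results of these data known. The text names the 6 catalytic subunits and the activators, the highest and lowest of each role, the 3 largest and 3 smallest ratios between libraries, members near the floor, set genes of the pathway lists and those past 1.5-fold, and the 10 genes that went most with the induced subunits. Members, pathway genes and other genes past 1.5-fold in both libraries within a range or partner comparison, and *Psmd4*, *Psmd5*, *Psma2*, *Rps27a* and *Ubb* where they fall outside this rule, were named after their values were seen. Python 3.11.15 was used with numpy 2.4.6, scipy 1.17.1, pandas 2.3.3 and matplotlib 3.10.9. Some genes are not reported here.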

Additional observations from a re-analysis of the deposited data

Results flagged for a closer look

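*Psmb6-ps2*, a pseudogene of *Psmb6* that the choice of genes left out, had 10 UMIs in YFP+ cells, 1.48 CPM, above the floor of 3 UMIs that a count of 0 allows. It had 3 UMIs, 1.24 CPM, in YFP− cells, and no UMI was seen of *Psmb6-ps*, *Psmb7-ps2* and *Psmb5-ps*. Of the stretches of 60 bases at the end of *Psmb6* transcripts, 2.27% also occur in *Psmb6-ps2*.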

How the results depend on the processing

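No paired analysis was possible because each group is 1 library. Over 22 alternative settings, 226 of 257 values of the main results stayed within the bounds set for no change, 31 moved, and the log2 ratios that changed sign were ones whose interval held 0. Of 120 values of single genes, 102 stayed, 16 moved and 2 reversed. Bins of UMI totals, the interferon list without 3 genes and the removal of shared barcodes were chosen after seeing the data. The cause of the changes below was not tested. Against 0 members past 1.5-fold higher in YFP+ cells, 1 was found at a minimum of 1000 UMIs, 6 in thinned cells, 1 without cells with markers of other types and 2 with no minimum level. Against 0 lower, 1 was found with equal weight of cells, 2 in thinned cells and 1 with free RNA of 10% removed. The shares over all genes at these settings are not given. The log2 ratio of the induced subunits between libraries, 0.02, was -0.12 in thinned cells and 0.37 in cells of 4000 UMIs or more. In cells of 500 to 1000 UMIs that of the standard subunits was -0.025 and that of the other 37 subunits 0.21, and the latter was 0.23 at 2000 to 4000 UMIs. For *Psmb6*, 0.20 turned to -0.021 in thinned cells and to -0.020 in cells of 500 to 1000 UMIs. The induced share was 49.1% and 51.1% (YFP− and YFP+) in cells of 500 to 1000 UMIs and 52.0% and 58.0% at 4000 or more. Cells thinned to 1000 UMIs held an induced UMI in 27.3% and 28.7% and a standard UMI in 22.1% and 25.6%, and without thinning in 46.4% and 39.3% and in 41.2% and 35.9%. At 1000 UMIs the level of the standard subunits in YFP+ cells with an induced UMI had a log2 ratio of -0.066, against 0.16 in cells thinned to 500 UMIs. With levels from thinned cells the log2 ratios of the standard subunits were 0.51 (interferon range, YFP+), 0.19 (heat shock range, YFP+), -0.58 and 0.56 (*Ccr2* range, YFP− and YFP+), and that of the induced subunits was -1.02 (*Retnla* and *Lyve1* range, YFP−). With a range of at most 20% the cell cycle value of the standard subunits was 0.14 in YFP+ cells. The YFP− ranges held only 45 to 92 cells, with few UMIs of any 1 subunit.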
